A study of Mus musculus with 6 samples.

Results

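Hox genes encode homeodomain transcription factors that give cells of the trunk and limbs a position. The mouse carries them in 4 clusters, Hoxa to Hoxd, on 4 chromosomes, with up to 13 paralog groups. Low numbers lie at one end of each cluster and high numbers at the other. In the embryo low-numbered groups act towards the head and high-numbered groups towards the tail and, in the limb, towards the digits. Limb skeletal cells and their descendants keep part of this code in the adult, and blood stem and progenitor cells use Hox genes as regulators of self-renewal and maturation.

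The members were all genes listed as protein coding with a name made of Hox, a cluster letter and a number. This gave 40 gene identifiers of 54532 listed, under 39 names, since Hoxd4 is listed under 2 overlapping identifiers. The values come from 3 RNA-seq libraries of the OVX group, ovariectomized mice (genotype WT) that received saline as solvent control. Removing the ovaries ends estrogen supply and lowers bone mass. The protocol takes RNA from powdered femoral tissue, which also holds marrow, whereas the characteristics name the macrophage-like cell line RAW264.7. The titles give 8, 9 and 10 weeks to OVX libraries 1, 2 and 3. The other group of the labels, Zin, received zingerone, a compound of ginger, in daily oral doses of 100 mg/kg over 8 weeks. No column name matched its libraries, so it was not analysed here and no effect of zingerone is reported.

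The 3 libraries held 16581579 to 17017907 reads, and levels are FPKM, reads scaled by gene length and by the total of the library. The libraries stood apart in tissue markers. The summed reads of 15 chondrocyte genes were 0.0184%, 0.317% and 0.0225% of libraries 1, 2 and 3, those of 13 osteoblast genes 1.14%, 2.89% and 0.745%, and those of 18 skeletal muscle genes 0.348%, 0.0286% and 0.227%. Library 2 was thus high in cartilage and bone genes and low in muscle genes. The libraries also differed in limb identity genes. Pitx1, the hindlimb identity factor, had 21, 91 and 0 reads in libraries 1, 2 and 3. Tbx5, the forelimb factor, had 27, 1 and 44, and Tbx4, a hindlimb gene, had 1, 2 and 9. The titles name no limb, and the source of these differences was not tested. In bulk tissue fewer cells of a type and less RNA per cell cannot be told apart. Differences between these libraries are differences between samples of 1 group, not effects of a condition, and with no label naming separate animals they may in part be technical.

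**Figure D1:**
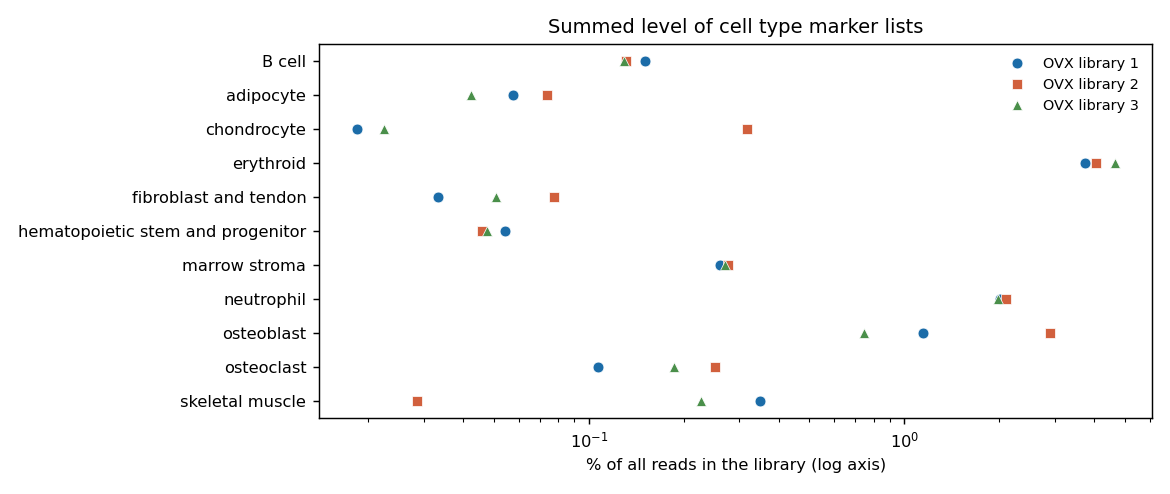
Summed reads of cell type marker lists as percent of all reads in the library (log axis), 1 point per OVX library. Chondrocyte, osteoblast and osteoclast lists were highest in library 2 and the muscle list was lowest there, at 0.0286%, while neutrophil, B cell and marrow stroma lists lay close together.

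Hox transcripts were scarce in these libraries. The 40 members together held 811, 1119 and 707 reads in libraries 1, 2 and 3, which is 0.00477%, 0.00660% and 0.00426% of all reads. Library 2 was highest and library 3 lowest. Of the members, 34 had a read in some library, 23 had reads in all 3 libraries, and 7 reached a mean of 1 FPKM. That is 17.5% of members at 1 FPKM or more, against 15.7% of the 191 other protein coding genes that the table assigns to the homeobox family and 53.4% of all protein coding genes. The median member had a mean of 0.182 FPKM, against 1.51 FPKM for the median protein coding gene and 0 FPKM for the median other homeobox gene. Of the 191 other homeobox genes 95 had a read in some library and 67 in all 3. Of 22046 protein coding genes 17015 had a read in some library and 15322 in all 3.

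The members at 0 reads in every library were Hoxb13, Hoxc13, Hoxd1, Hoxd11, Hoxd12 and 1 of the 2 Hoxd4 identifiers. With 0 reads a true count of up to 3 remains possible, which in library 3 is 0.0823 FPKM for Hoxb13 and 0.0431 FPKM for the longer Hoxd11. Levels below that remain possible for these members at this depth. The Hoxd4 identifier at 0 overlaps Hoxd3 and the other Hoxd4 identifier, so reads there cannot be assigned with certainty and its 0 is less sure. Hoxb13, Hoxc13, Hoxd11 and Hoxd12 belong to the posterior groups, which pattern the tail end and, in part, the digits. Hoxd1 and Hoxd4 belong to lower groups, and 12 of the 16 members in groups 9 to 13 had a read in some library.

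**Figure D2:**
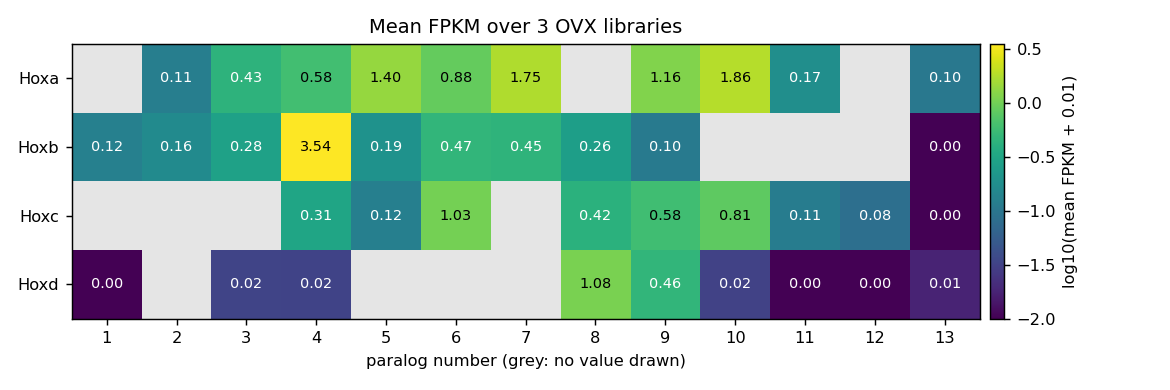
Mean FPKM over the 3 OVX libraries for Hox genes, by cluster (rows) and paralog number (columns); colour is log10(mean FPKM + 0.01), grey marks positions with no value drawn, and the higher of the 2 Hoxd4 identifiers is shown. Hoxb4 stood highest at 3.54 FPKM, and in Hoxd only Hoxd8, at 1.08 FPKM, reached 1 FPKM.

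The most abundant member was Hoxb4, a factor known for expanding blood stem cells (ENSMUSG00000038692, mm10 chromosome 11, 96318267 to 96321638, plus strand). Libraries 1, 2 and 3 gave 172, 142 and 147 reads of it, which is 3.88, 3.29 and 3.46 FPKM. The values lay close together, with a mean of 3.54 ± 0.305 FPKM (SD, n = 3), and did not pass the test for differences between libraries described further on (adjusted p = 0.345). The next member, Hoxa10, stood at 1.86 ± 0.406 FPKM, below Hoxb4 in every library.

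After Hoxb4 came a series of Hoxa genes whose levels overlapped. Hoxa7 stood at 1.75 ± 0.405 FPKM, Hoxa5 at 1.40 ± 0.316 and Hoxa9, which is active in blood progenitors, at 1.16 ± 0.209 (SD, n = 3 each). Hoxd8 followed at 1.08 ± 0.295 FPKM and Hoxc6 at 1.03 ± 0.640. Each neighbour in this order differed from the next by less than the spread between libraries. The distal end of the Hoxa cluster stood lower, at 0.0957 ± 0.127 FPKM for Hoxa13.

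Start regions are shown for the most abundant member and for the neighbours Hoxa10 and Hoxa11, whose reads in library 3 differ in kind (given further on). Each runs from 250 bases before to 50 bases after the start of the gene, on its own strand, from RefSeq with build GRCm38.p6, which is mm10. Capitals mark each CG dinucleotide, the site of DNA methylation.
Hoxb4, chr11:96318017-96318316, plus strand: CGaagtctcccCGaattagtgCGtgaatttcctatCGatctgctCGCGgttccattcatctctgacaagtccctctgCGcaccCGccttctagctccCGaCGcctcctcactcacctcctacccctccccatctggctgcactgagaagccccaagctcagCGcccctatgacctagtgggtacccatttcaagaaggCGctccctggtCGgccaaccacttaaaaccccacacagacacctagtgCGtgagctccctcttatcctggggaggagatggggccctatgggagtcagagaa
Hoxa10, chr6:52240805-52241104, minus strand: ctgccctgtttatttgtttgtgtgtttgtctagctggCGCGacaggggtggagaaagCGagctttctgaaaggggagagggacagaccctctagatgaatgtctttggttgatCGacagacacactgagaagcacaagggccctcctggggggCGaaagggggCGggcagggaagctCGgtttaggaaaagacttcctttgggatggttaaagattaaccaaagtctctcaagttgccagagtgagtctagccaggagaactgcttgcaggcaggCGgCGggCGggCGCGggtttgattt
Hoxa11, chr6:52245761-52246060, minus strand: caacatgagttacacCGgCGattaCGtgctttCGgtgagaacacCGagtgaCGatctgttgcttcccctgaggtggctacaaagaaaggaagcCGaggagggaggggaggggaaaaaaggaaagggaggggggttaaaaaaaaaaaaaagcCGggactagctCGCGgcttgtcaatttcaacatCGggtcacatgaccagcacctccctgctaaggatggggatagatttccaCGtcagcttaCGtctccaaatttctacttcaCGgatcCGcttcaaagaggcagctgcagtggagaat
These regions hold 14, 12 and 15 CG dinucleotides. CG reads the same on both strands. Regions were in the table for 22 of the 39 names, and the 24 regions of these genes held a median of 14.5, with a range of 4 to 45, against a median of 7 over all 32851 regions of the same length. At least 1 CG was present in 100% of the Hox regions and in 94.6% of all regions.

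By cluster, Hoxa led with 46.4%, 48.2% and 54.0% of Hox reads in libraries 1, 2 and 3, followed by Hoxb with 32.8%, 22.8% and 28.1%. Hoxd gave 71, 48 and 92 reads, highest in library 3. The cluster that moved most between libraries was Hoxc, at 12.1% (exact 95% binomial interval 9.92% to 14.5%), 24.8% (22.2% to 27.4%) and 4.81% (3.35% to 6.66%). The 3 Hoxc intervals did not overlap. By paralog number, groups 4 to 8 held 59.2%, 52.3% and 58.1% of Hox reads and groups 9 to 13 held 32.6%, 38.2% and 29.4%. These intervals reflect the counting of reads alone, and reads can be copies of 1 molecule.

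**Figure D3:**
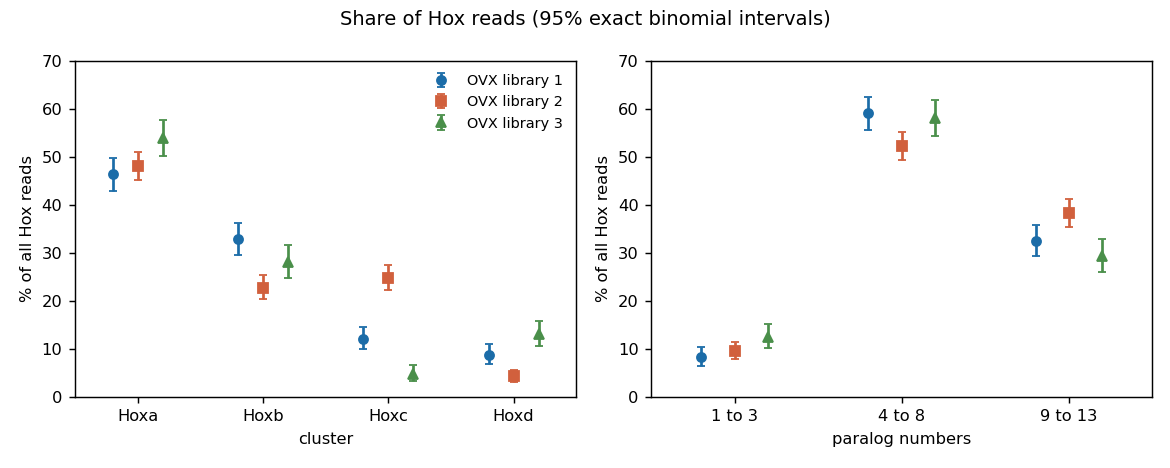
Share of all Hox reads in percent by cluster (left) and by paralog numbers (right), 1 point per OVX library, with 95% exact binomial intervals as bars. Hoxc spans 4.81% in library 3 to 24.8% in library 2, whereas Hoxa stays between 46.4% and 54.0%.

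Libraries were compared gene by gene with a chi-square test of their reads against the library totals (p adjusted by Benjamini-Hochberg), over 16688 genes with at least 30 reads in the 3 libraries together. Of the 40 members, 19 had that many reads and 9 of these differed at an adjusted p below 0.05, while 21 were too low to test. Over all tested genes 37.5% differed, as did 29.9% of genes in the range of reads of the tested Hox genes and 50.9% of the 55 other homeobox genes tested. Some members reached 30 reads largely through the library where they were high, so the count is a description. Of the 19 tested members, 8 differed and were highest in library 2, 1 in library 1 and 0 in library 3. Over all tested genes 13.1%, 15.4% and 8.93% differed and were highest in libraries 2, 1 and 3. Of the same 19, 7 differed and were lowest in library 3, 2 in library 1 and 0 in library 2. Over all tested genes these shares were 11.4%, 10.1% and 16.1%. Within the range of reads of the Hox genes, 13.3% differed and were highest in library 2, and 9.73% differed and were lowest in library 3. The test compares libraries and not conditions.

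The largest differences lay side by side in Hoxc. Hoxc8, Hoxc9 and Hoxc10, neighbours in the middle to posterior part of the cluster, were well covered in library 2 and had no reads in library 3. Hoxc8 had 3, 57 and 0 reads in libraries 1, 2 and 3, Hoxc9 had 15, 56 and 0, and Hoxc10 had 24, 55 and 0. Library 1 lay between the others for each of these genes.

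In FPKM, Hoxc10, which marks the mouse hindlimb and lumbar region (ENSMUSG00000022484, chromosome 15, 102966796 to 102971893, plus strand), stood at 0.728 and 1.71 in libraries 1 and 2. It was listed at 0 in library 3, where 0 allows up to 0.0950 FPKM. The library 2 value was 18.0 times that limit, leaving out the counting error of library 2 (chi-square test, adjusted p = 7.30e-12). Hoxc9 (ENSMUSG00000036139, chromosome 15, 102976439 to 102985099) had 0.357, 1.37 and 0 FPKM in libraries 1, 2 and 3. Its library 2 value was 18.3 times the limit in library 3 (chi-square test, adjusted p = 1.16e-14). Hoxc8 (ENSMUSG00000001657, chromosome 15, 102990607 to 102994111) had 0.0613, 1.19 and 0 FPKM, and 18.6 times the limit by the same measure (adjusted p = 2.03e-21).

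Of all 16688 tested genes, 13 (0.0779%) had 0 reads in library 3, 20 (0.12%) in library 2 and 17 (0.102%) in library 1. The minimum of 30 reads removes most genes with a 0 in some library. Hoxc8, Hoxc9, Hoxc10 and Pitx1 were among the 13 and passed the minimum through library 2, so nothing is read from their number. Chosen after their values were seen, the other 9 were Serpina1d, Epyc, Ighv1-37, Rspo4, Slc7a10, Tmem200a, Adig, Lep and Capn11, which include the cartilage proteoglycan gene Epyc and the adipocyte genes Lep and Adig. Below the minimum of 30 reads, 3 distal members had the same order of libraries. Hoxc11 had 1, 10 and 0 reads, Hoxa11 had 4, 16 and 0, and Hoxa13 had 2, 10 and 0 in libraries 1, 2 and 3. Groups 11 to 13 together gave 9, 39 and 0 reads, or 1.11% (0.509% to 2.10%), 3.49% (2.49% to 4.73%) and 0% (up to 0.520%) of Hox reads. Hoxa11, a regulator of the lower leg and forearm, shares 35.0% of its exon bases with the antisense gene Hoxa11os, which had 3, 4 and 1 reads, so reads of the pair may be split differently from their source.

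**Figure D4:**
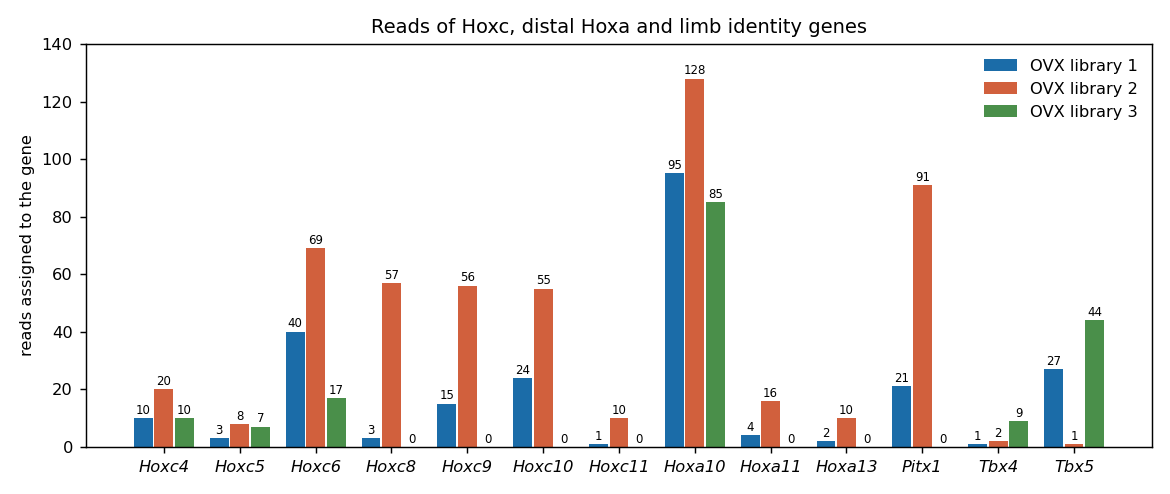
Reads per gene in each OVX library for the Hoxc genes from Hoxc4 to Hoxc11, the distal Hoxa genes, and the limb identity genes Pitx1, Tbx4 and Tbx5, with the count above each bar. Hoxc8 to Hoxc11, Hoxa11, Hoxa13 and Pitx1 have 0 reads in library 3, where Tbx5 is highest at 44 reads; Hoxa10 has reads in all 3 libraries.

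The anterior Hoxc genes were present in every library. Hoxc6 (chromosome 15, 102998257 to 103011881) had 0.961, 1.70 and 0.427 FPKM in libraries 1, 2 and 3, where 40, 69 and 17 reads were counted. It was 3.98 times as high in library 2 as in library 3 (chi-square test, adjusted p = 1.50e-06). Hoxc4 had 10, 20 and 10 reads and did not pass the test (adjusted p = 0.171), and Hoxc5 had 3, 8 and 7 reads. The 0 reads in library 3 thus began at Hoxc8 and ran to the distal end of the cluster at Hoxc13, which had no reads in any library. Hoxc10 and Hoxc5 share 8.70% of the exon bases of Hoxc10, and the listed Hoxc5 spans Hoxc6, Hoxc8 and Hoxc9.

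In Hoxa, 4 of 7 tested members differed between libraries, against 37.5% of all tested genes. Hoxa6 had 0.530, 1.70 and 0.415 FPKM in libraries 1, 2 and 3, with 8, 25 and 6 reads, and was higher in library 2 than in the others (chi-square test, adjusted p = 0.00133). Hoxa10, the group 10 gene that patterns the femur segment in mice, had 1.68, 2.32 and 1.57 FPKM and its highest value was 1.48 times its lowest (adjusted p = 0.0307). Hoxa7 had 1.31, 2.11 and 1.83 FPKM (adjusted p = 0.0420) and Hoxa3 0.269, 0.523 and 0.503 (adjusted p = 0.0342). Both were lowest in library 1. These last 3 calls depended on which libraries were kept. Without library 2 the adjusted p was 0.762 for Hoxa10, 0.178 for Hoxa7 and 0.0517 for Hoxa3, without library 1 it was 0.544 for Hoxa7 and 0.922 for Hoxa3, and without library 3 it was 0.0760 for Hoxa10. For Hoxa3 and Hoxa7, 27.1% and 20.4% of exon bases are shared with other genes, among them the antisense gene Hoxaas3 with 12, 7 and 24 reads.

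Hoxa9 had 1.06, 1.40 and 1.03 FPKM and Hoxa5 1.73, 1.39 and 1.10 in libraries 1, 2 and 3, and neither passed the test (chi-square test, adjusted p = 0.0909 and 0.167). Hoxa4, at 0.327, 0.782 and 0.645 FPKM, did not pass it either (adjusted p = 0.172). Hoxa5 was the Hoxa member among these with its highest value in library 1.

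In Hoxb, 1 of 5 tested members differed, against 37.5% of all tested genes, and library 3 was the low one. Hoxb6 had 0.707, 0.574 and 0.123 FPKM in libraries 1, 2 and 3, where it gave 24, 19 and 4 reads (chi-square test, adjusted p = 0.00530). Without library 3 it did not pass (adjusted p = 0.621). Its neighbours Hoxb7, with 14, 17 and 4 reads, and Hoxb8, with 17, 12 and 6 reads, had the lowest value in library 3 too but did not pass the test (adjusted p = 0.0567 and 0.166). Hoxb3, at 0.218, 0.377 and 0.242 FPKM, did not pass it (adjusted p = 0.276). Hoxb1, Hoxb2, Hoxb5 and Hoxb9 had 13 to 28 reads in all.

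Hoxd had no member that passed the test. Hoxd8 had 1.05, 0.800 and 1.39 FPKM in libraries 1, 2 and 3, with 50, 37 and 63 reads (chi-square test, adjusted p = 0.0624). Without library 1 it passed (adjusted p = 0.0301). Hoxd9 had 0.461, 0.278 and 0.651 FPKM and 17, 10 and 23 reads (adjusted p = 0.139). Both had their highest value in library 3 and their lowest in library 2, the reverse of the order of Hoxc8 to Hoxc10. The other Hoxd members had between 0 and 5 reads in all. Hoxd3 and the Hoxd4 identifiers overlap each other, so their few reads cannot be assigned with certainty.

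**Figure D5:**
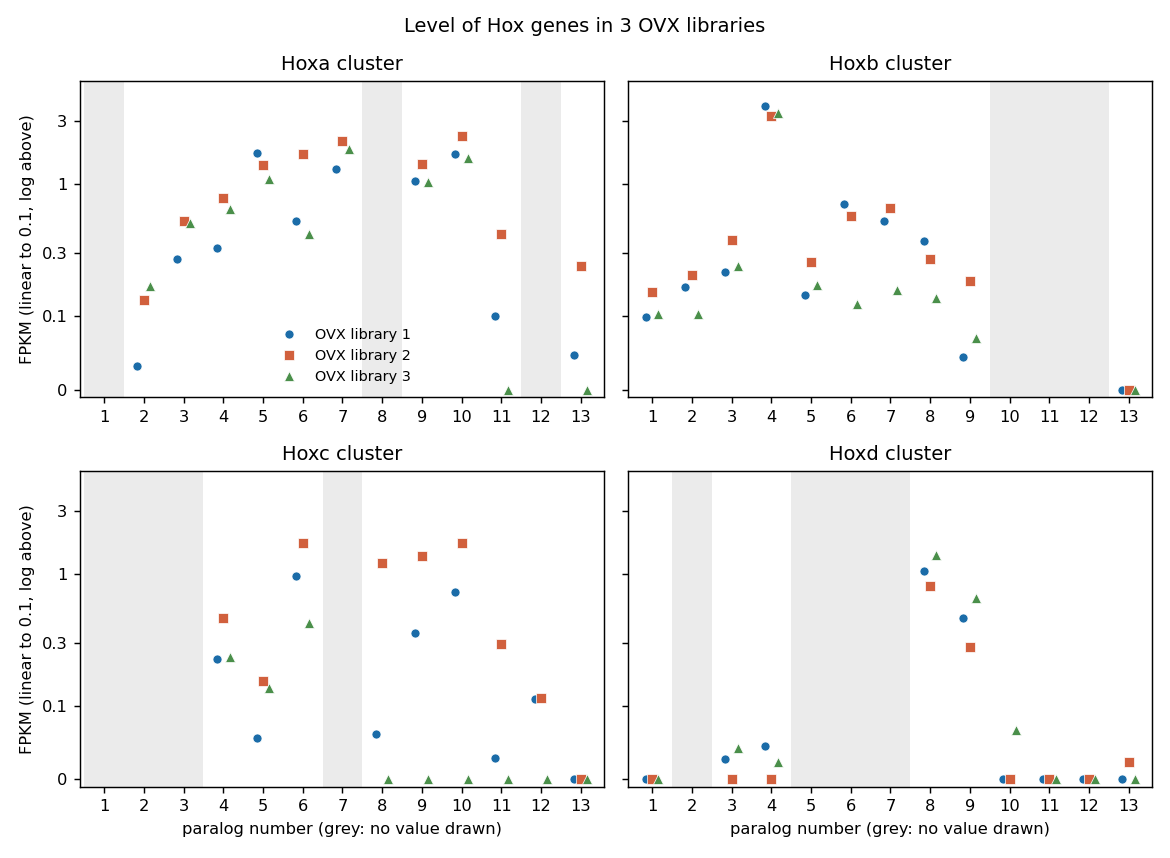
FPKM of Hox genes in OVX libraries 1 (circles), 2 (squares) and 3 (triangles), by cluster and paralog number, on an axis that is linear up to 0.1 FPKM and logarithmic above; grey marks positions with no value drawn, and the Hoxd4 identifier without reads is left out. Hoxb4 values coincide near 3.5 FPKM, Hoxc8 to Hoxc11 spread from library 2 down to 0 in library 3, and Hoxd8 and Hoxd9 run in the other order.

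Genes that set limb identity were taken from a list of 37 regulators of limb identity and limb axes. Pitx1 directs hindlimb identity, Tbx4 is its hindlimb target, and Tbx5 starts the forelimb. Pitx1 had 21, 91 and 0 reads in libraries 1, 2 and 3, or 0.458, 2.03 and 0 FPKM (chi-square test, adjusted p = 2.53e-25). Its library 2 value was 29.8 times what 0 reads allow in library 3. Tbx5 had the reverse order, with 27, 1 and 44 reads, or 0.334, 0.0127 and 0.569 FPKM (adjusted p = 2.33e-08). Tbx4, named after its values were seen, had 1, 2 and 9 reads, too few to test, and was highest in library 3. Pitx1 and Tbx4 thus had their highest values in different libraries.

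Of the 37 limb regulators, 22 were tested. Of these 22, 17 differed between libraries, and 12 of the 22 differed and were highest in library 2. Over all tested genes these shares were 37.5% and 13.1%. Tbx2 was the most abundant, with 3.86, 9.61 and 4.34 FPKM in libraries 1, 2 and 3 (chi-square test, adjusted p = 3.57e-43). Gli1 and Gli2, which carry the hedgehog signal, had 0.151, 1.20 and 0.375 FPKM (adjusted p = 1.54e-18) and 0.295, 1.03 and 0.335 FPKM (adjusted p = 1.37e-14). Lhx2 had 4, 26 and 8 reads (adjusted p = 0.000146), highest in library 2 as well. Without library 2, 2 of 18 tested limb regulators differed, against 17.4% of all tested genes, and Gli2 and Tbx2 did not pass (adjusted p = 0.812 and 0.508). Shh, Wnt7a and Fgf8, signals of the embryonic limb bud, had 0 reads in every library.

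Tissue markers moved between the same libraries. All 15 chondrocyte genes were highest in library 2, where Acan, the main cartilage proteoglycan, had 3779 reads against 12 in library 1 and 148 in library 3. Of 18 skeletal muscle genes 15 were tested and differed, 14 of them highest in library 1. All 13 osteoblast and all 8 osteoclast genes were highest in library 2, and all 8 erythroid genes in library 3. Over all tested genes 37.5% differed, and 15.4%, 13.1% and 8.93% differed and were highest in libraries 1, 2 and 3. Of the other lists, 7 of 10 stem and progenitor genes differed, all of these highest in library 1. In the B cell, neutrophil and fibroblast and tendon lists 7 of 8 genes each differed, as did 9 of 9 marrow stroma genes. Of these, 5 B cell, 3 neutrophil, 2 fibroblast and tendon and 2 marrow stroma genes were highest in library 1. Highest in library 2 were 2 B cell, 4 neutrophil, 4 fibroblast and tendon and 5 marrow stroma genes. Highest in library 3 were 1 fibroblast and tendon and 2 marrow stroma genes. Among 10 adipocyte genes, a list added after the values were seen, 9 were highest in library 2 and the lowest in library 3 included Plin1, a lipid droplet protein, with 134, 385 and 9 reads in libraries 1, 2 and 3. The part of these tissues in the Hox differences was not tested. Between libraries 1 and 3 alone, 7 of the 9 chondrocyte genes tested differed, against 17.4% of all tested genes, and the list summed to 25.7 and 59.5 FPKM there. Col2a1, the main cartilage collagen, held most of its reads in both, with 2737 and 1888.

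Libraries 1 and 3 were also compared without library 2. Among members with at least 30 reads in this pair, 1 of 10 differed, which was Hoxc6 (chi-square test, adjusted p = 0.0235); over all genes 17.4% did. Hoxa6, Hoxb6, Hoxc8, Hoxc9 and Hoxc10 had fewer than 30 reads in the pair. With a minimum of 1 read, 4 of 33 members and 9.46% of all genes differed. The members were Hoxb6, Hoxc6, Hoxc9 and Hoxc10 (adjusted p = 0.00443, 0.0374, 0.00307 and 5.6e-05), and Pitx1 differed as well (adjusted p = 0.000220), while Hoxc8 and Tbx5 did not (adjusted p = 0.315 and 0.188). The 4 Hox genes and Pitx1 were higher in library 1.

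Cofactors of the TALE class bind DNA beside Hox proteins. All 9 were tested and 4 differed between libraries, against 37.5% of all tested genes, and 3 differed under either other scaling. Without library 2 it was 1 of 9, against 17.4% of all tested genes. Pbx2 was the most abundant at 24.3 ± 0.607 FPKM (SD, n = 3), and Meis1, the partner of Hoxa9 in blood progenitors, stood at 1.21 ± 0.0719 FPKM. Meis2 had 30, 8 and 37 reads in libraries 1, 2 and 3 (chi-square test, adjusted p = 0.000459) and Meis3 95, 111 and 68 (adjusted p = 0.0282). Without library 2 neither passed (adjusted p = 0.573 and 0.177), nor did Meis3 without library 3 (adjusted p = 0.425). Pknox1 had 10.1, 8.48 and 8.93 FPKM (adjusted p = 0.000132) and did not pass without library 1 (adjusted p = 0.393).

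Chromatin regulators of the clusters, the Trithorax and Polycomb genes, all had reads in every library. All 20 listed were tested and 10 differed, against 37.5% of all tested genes. Of the 20, 9 differed and were highest in library 1, against 15.4% of all tested genes. Calls come more easily at the higher reads of these genes. The median ratio of the highest to the lowest library was 1.12 over the list, against 1.997 over the tested Hox genes with reads in every library, 1.45 over tested other homeobox genes and 1.16 over tested protein coding genes. This ratio also grows as reads become fewer. Ctcf, an insulator protein that bounds Hox domains, was the most abundant, at 44.3 ± 0.495 FPKM (SD, n = 3), and did not pass the test (adjusted p = 0.761). Kmt2a, which keeps Hox genes active, had 16.7, 14.7 and 14.9 FPKM in libraries 1, 2 and 3 (chi-square test, adjusted p = 2.54e-12), and did not pass without library 1 (adjusted p = 0.622). The Polycomb gene Cbx2 had 235, 215 and 165 reads (adjusted p = 0.0154) and Ring1 480, 467 and 354 (adjusted p = 0.000526). Both were lowest in library 3 and did not pass without it (adjusted p = 0.537 and 0.821), nor did Cbx2 without library 1 (0.0697). The other Polycomb genes Cbx7 and Ezh1 had 1343, 1068 and 1122 reads (adjusted p = 7.95e-07) and 1255, 1034 and 1105 reads (adjusted p = 0.000191). Men1, a partner of Kmt2a, had 951, 902 and 788 (adjusted p = 0.0108). Without library 1 none of these 3 passed (adjusted p = 0.222, 0.120 and 0.0753), and Ezh1 did not without library 2 (0.0710) nor Men1 without library 3 (0.456).

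Patterning genes outside the clusters had few reads. Among 8 ParaHox and cluster-flanking genes, Cdx and Gsx genes included, 7 had 0 reads in every library and Evx1, beside Hoxa13, had 3, 2 and 1. Among 14 other head and trunk patterning genes, 6 had 0 reads, 6 were tested and 3 differed. Over all tested genes 37.5% differed, as did 50.9% of the tested homeobox genes outside the clusters. Pax1, a gene of the vertebral column and shoulder girdle, had 0, 37 and 2 reads in libraries 1, 2 and 3 (chi-square test, adjusted p = 8.60e-14). Nkx3-2, a chondrocyte factor, had 18, 50 and 7 reads (adjusted p = 3.66e-08), and Six2 had 11, 3 and 16 (adjusted p = 0.0340). Without library 2 none passed, Nkx3-2, Pax1 and Six2 having fewer than 30 reads in libraries 1 and 3.

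The clusters also hold microRNAs, which repress Hox and other messages through the seed at bases 2 to 8, here in capitals (RefSeq, GRCm38.p6). They are shown because their hairpins lie among the members and were nearly unread in these libraries.
mmu-miR-10a-5p: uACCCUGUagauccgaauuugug
mmu-miR-10b-5p: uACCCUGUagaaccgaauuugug
mmu-miR-196a-5p: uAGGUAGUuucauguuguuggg
mmu-miR-196b-5p: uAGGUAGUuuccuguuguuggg
The sequences miR-10a-5p and miR-10b-5p are identical at 22 of 23 bases and miR-196a-5p and miR-196b-5p at 21 of 22, with 1 seed per family. The hairpin gene Mir10a, between Hoxb5 and Hoxb4 (mature form at chr11:96317186-96317208, plus strand), had 5, 5 and 3 reads in libraries 1, 2 and 3, and Mir10b, within the Hoxd4 span (chr2:74726074-74726096, plus strand), had 0, 0 and 1. Both Mir196a genes (chr11:96265187-96265208 and chr15:102973365-102973386, plus strand) and Mir196b (chr6:52230129-52230150, minus strand) had 0 reads in every library. Reads over a hairpin gene in such libraries do not measure the mature microRNA.

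Long noncoding genes of the clusters were low as well. Hotairm1, an antisense RNA of the Hoxa cluster described in myeloid cells, had 1.24, 0.521 and 0.767 FPKM in libraries 1, 2 and 3, with 22, 9 and 13 reads (chi-square test, adjusted p = 0.114). Hoxaas3 had 0.240, 0.144 and 0.502 FPKM and differed between libraries (adjusted p = 0.0132), with its highest value in library 3. Hotair, within the Hoxc cluster, and Hottip, beside Hoxa13, had 0 reads in every library. In the Hoxc cluster none of the 7 other genes listed within 10000 bases had a read.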

How the data were processed

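The members and gene lists were chosen with earlier results of these data known. The deposited table gives FPKM by gene with gene lengths. Trimmomatic, FastQC, STAR, featureCounts and build mm10 are named, without versions, per the submitters' processing notes. Annotation and strandedness are not given. Columns were used where their names matched a library name in the labels, which held for the 3 OVX libraries. The other 3 value columns matched no label and were not used, so the comparison with zingerone by limma planned for this work was not run.

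Reads were recovered as whole multiples of the smallest step of FPKM times length, with 100% of values whole to a tolerance of 0.01 read. The authors' FPKM imply totals of 17279919, 16845977 and 16533661, against 17017907, 16964740 and 16581579 reads listed. Genes with at least 30 summed reads entered a chi-square test of reads against listed totals, with Benjamini-Hochberg adjustment over all of them and a threshold of 0.05. It assumes counting noise alone, was tested on simulated data, and calls genes with many reads more easily. Intervals are exact at 95%. A count of 0 allows 3 reads. A fold against a count of 0 was taken in FPKM over the value of 3 reads, without the counting error of the higher library.

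Named were Hox genes averaging 1 FPKM or more, called, or at 0 reads in every library; of each pathway list, the most abundant gene and called genes with the largest folds. Some genes that the rule names are not reported here, though counts and sums include them. Exon overlaps came from GENCODE M21, which held 39 of the 40 identifiers, 38 with the same ends. Alternatives were other filters, scalings and each library left out. The scripts ran under Python 3.11.15 with scipy 1.17.1, pandas 2.3.3, matplotlib 3.10.9 and numpy 2.4.6.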

Additional observations from a re-analysis of the deposited data

How the results depend on the processing

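The count of 9 Hox genes that differed between the OVX libraries was 9 under median-of-ratios scaling and with the totals behind the authors' FPKM, both times the same genes, where 36.4% of all tested genes differed against 37.5% in the report. It became 3 of 7 among members averaging 1 FPKM or more, since 12 tested members lie below that level (38.7% of all genes tested there differed), and 10 of 34 with a minimum of 1 read (22.4% of all genes), where Hoxa11, Hoxa13 and Hoxc11 entered and Hoxa3 and Hoxa7 no longer passed. Without 1 library it ran from 1 to 7, the lowest without library 2, while 17.4% to 30.2% of all tested genes differed. With a minimum of 1 read it ran from 4 to 12, again lowest without library 2, against 9.46% to 17.6% of all genes. Among members sharing no exon base with another listed gene it was 6 of 13. The overlap and 1-read leave-out alternatives were chosen after seeing the data. Hoxc8 passed in each setting that tested it except libraries 1 and 3 alone, where it had 3 and 0 reads.

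The mean share of Hoxa in Hox reads, 49.5%, was 44.9% by summed FPKM, which weighs genes by length; the shares of Hoxb, Hoxc and Hoxd moved by less than 1 SD. Without 1 library the shares ran from 47.3% to 51.1% for Hoxa, 25.5% to 30.5% for Hoxb, 8.45% to 18.4% for Hoxc and 6.52% to 10.9% for Hoxd. The level of each Hox gene moved by less than 1 SD under FPKM from the reads listed and median-of-ratios scaling. No paired analysis was possible because the columns of only 1 group could be tied to labels. Over all alternatives 499 values of single genes kept their side of the threshold or moved by less than 1 SD, and 97 adjusted p-values no longer passed, most of them with 1 library left out. Depth limits the 21 members under 30 reads.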
